A study of Mus musculus with 6 samples.

Results

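The genes described here are the 4 class I histone deacetylases, Hdac1, Hdac2, Hdac3 and Hdac8, and 5 core proteins of the corepressor complexes in which the first 3 of them work: Ncor1 of the NCoR complex, Rcor1 and Kdm1a of CoREST, Sin3a of the Sin3 complex and Chd4 of NuRD. They were taken by symbol from the table of counts per gene, where all 9 were found among 13007 genes and all 9 passed the filter on low counts that left 12427 genes for testing. Sorted marrow cells of C57BL/6 mice were profiled by RNA sequencing, comparing 3 libraries of acute erythroid leukemia cells (AEL) with 3 libraries of normal erythroid precursors (NC). The AEL cells were labelled Trp53-/- and ERG-expressing, overexpressed ERG (a transcription factor of the ETS family) along with GFP, and were sorted as GFP-positive cells. The NC cells were labelled wild type and were sorted on CD71 (transferrin receptor) and on Ter119, which marks the red cell lineage. The source label of all 6 libraries lists mutations of SETBP1 and ASXL1 as well; for NC this conflicts with the wild-type genotype label, and the labels do not settle it. The titles call the replicates biological. The sources used here do not give age, the promoter driving ERG or the animal behind each replicate. The p-values therefore cover only spread between libraries, and whether this is spread between animals is not known.

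Class I deacetylases remove acetyl groups from histone tails, which in general closes chromatin and lowers transcription. Hdac1 and Hdac2 are close paralogs that form the catalytic core of the Sin3, NuRD and CoREST complexes, Hdac3 works almost only within NCoR complexes, and Hdac8 acts alone, with the cohesin subunit Smc3 as its best known substrate. In red cell development these complexes are brought to DNA by lineage factors: Gfi1b recruits CoREST with the demethylase Kdm1a (LSD1), Zfpm1 (FOG1) links Gata1 to NuRD, and Cbfa2t3 (ETO2) binds NCoR.

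Library totals ran from 8171676 to 9945330 counts, and the AEL libraries varied among themselves far more than the NC libraries (coefficient of biological variation 44.1% and 9.01%). Trp53 was at 976 to 1172 CPM (counts scaled to the library total with TMM factors) in the libraries labelled Trp53-/- and at 162 to 177 CPM in NC, so gene-level counts do not check that label. Erg was at 557 to 790.1 CPM in AEL and 4.39 to 8.53 CPM in NC, and reads of the introduced ERG cannot be told apart from those of mouse Erg. Markers of several cell types were lower in AEL. Erythroid markers (14 genes, 11 lower) summed to 5609 to 14790 CPM in AEL and 56840 to 72130 CPM in NC; the AEL cells were not sorted on an erythroid marker. Neutrophil markers (10 of 10 lower) summed to 17.3 to 1030 and 7459 to 8687 CPM, monocyte and macrophage markers (9 of 10 lower) to 9.80 to 239 and 3728 to 4441 CPM, and B cell markers (8 of 8 lower) to 1.58 to 2.38 and 192 to 229.5 CPM. Of the 4 measured T and NK cell markers, 3 were tested and 3 were lower, with sums of 0.225 to 0.915 and 47.1 to 52.7 CPM. Megakaryocyte markers (3 lower and 1 higher of 6 measured) summed to 42.2 to 259.8 and 89.1 to 115 CPM, with Gp1bb and Ppbp at 0 in every AEL library. No marker of the other lists was at 0 in all 3 AEL libraries. These marker differences lie between the same groups as every result given here, and their part in those results was not tested.

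Promoter windows of 300 bases around RefSeq starts (250 before and 50 after, GRCm38.p6) were found for 7 of the 9 genes, in 10 windows, and were searched on both strands for the core ETS letters CGGAAG, because ERG is an ETS factor, and for the GATA letters AGATAA. The ETS letters were present in 2 of the 10 windows, against 16.9% of all 32851 windows, and these belonged to Ncor1 and Rcor1. The GATA letters were present in 1 window, of Chd4, against 11.2% of all windows. For Ncor1 the site lies on the minus strand at chr11:62457367-62457396, inside the gene as RefSeq draws it, so 30 bases are shown, and for Rcor1 (plus strand, chr12:111039117-111039350) and Chd4 (plus strand, chr6:125095731-125095979) the annotated exon-free bases before the start are shown. Capitals mark the ETS letters in the first pair and the GATA letters, here on the opposite strand, in the last.
Ncor1: tccccaaccctcCGGAAGgaggaggagccc
Rcor1: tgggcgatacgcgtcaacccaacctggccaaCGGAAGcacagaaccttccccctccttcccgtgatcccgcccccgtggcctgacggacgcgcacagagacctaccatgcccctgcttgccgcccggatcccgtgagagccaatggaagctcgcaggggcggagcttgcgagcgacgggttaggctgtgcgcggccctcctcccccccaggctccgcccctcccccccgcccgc
Chd4: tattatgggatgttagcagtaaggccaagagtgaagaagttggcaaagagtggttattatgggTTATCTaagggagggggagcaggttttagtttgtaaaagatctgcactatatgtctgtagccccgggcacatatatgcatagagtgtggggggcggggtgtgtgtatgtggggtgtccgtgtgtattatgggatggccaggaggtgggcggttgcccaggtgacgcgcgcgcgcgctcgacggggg
Other letters searched were the GC box GGGCGG, in 7 of the 10 windows (35.7% of all windows), CCAAT in 7 (37.4%), the E-box CACGTG in 0 (7.15%) and the NRF1 motif in 0 (0.971%). A match describes letters only and was not tied to binding by any file used here.

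In AEL, Hdac1 fell while Ncor1, Rcor1 and Kdm1a rose, and the remaining 5 genes did not pass the test. The call rule was an adjusted p under 0.05 in edgeR's quasi-likelihood test over all 12427 genes. By that rule 4 of the 9 genes (44.4%) were called, against 52.8% of all genes tested. Of the 9 genes 3 were called higher (33.3%, against 23.9% of all genes) and 1 lower (11.1%, against 29.0% of all genes). The 3 AEL libraries lay wholly above the 3 NC libraries for 6 of the 9 genes (29.9% of all genes) and wholly below for 1 (36.1%), so that 7 of the 9 did not overlap, against 66.0% of all genes. The median log2 fold change over the 9 genes was 0.22, beside -0.05 over all genes tested. Fewer cells of a type and less RNA per cell cannot be told apart in these bulk libraries.

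**Figure D1:**
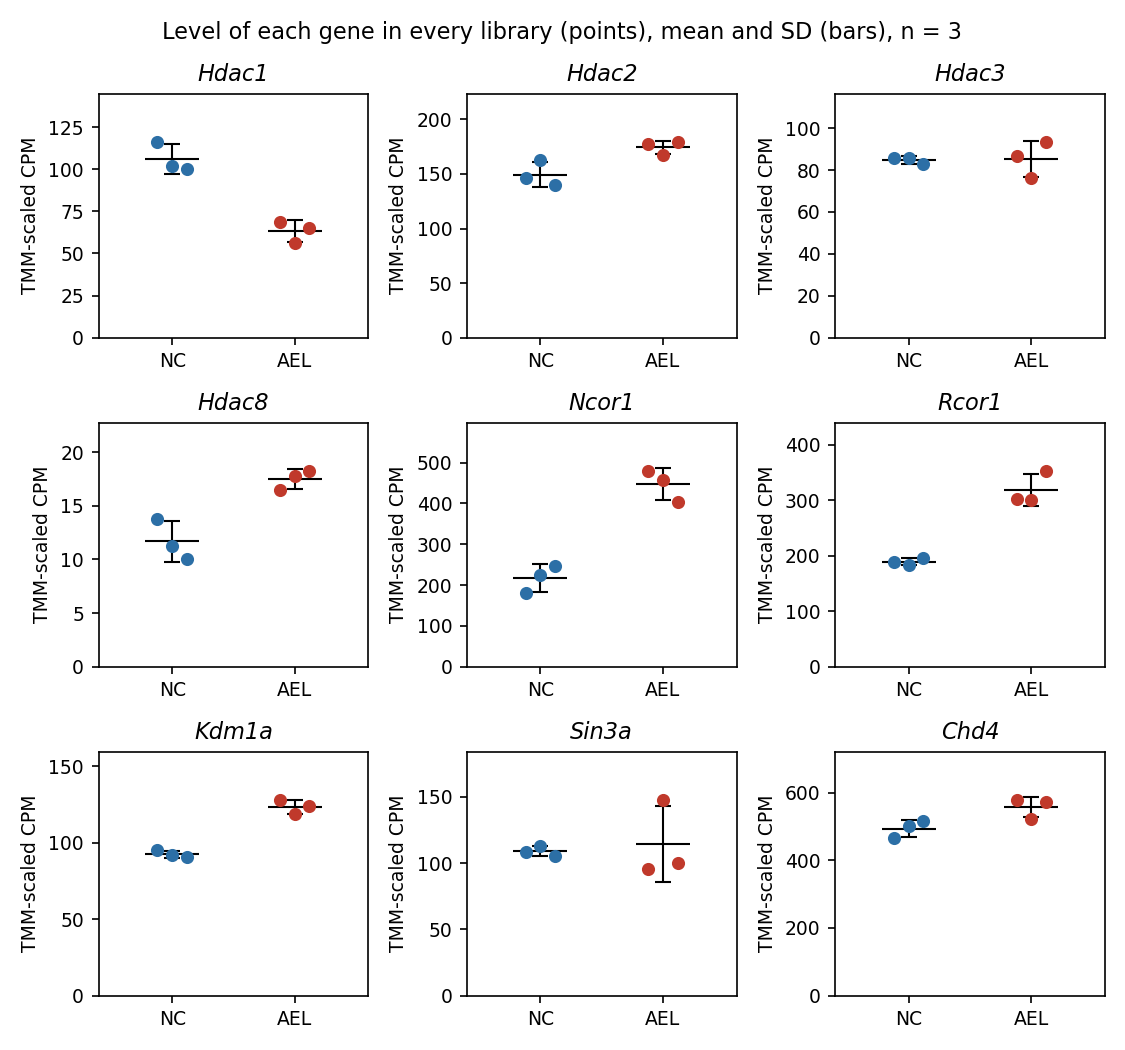
Level of each of the 9 genes in every library, in CPM scaled by TMM factors on a linear axis that starts at 0; points are the 3 NC (blue) and 3 AEL (red) libraries, and bars show the mean and SD. The groups overlap only for Hdac3 and Sin3a, and Hdac1 is the gene whose AEL libraries all lie below NC.

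Among the enzymes, Hdac1 (chromosome 4, 129516104 to 129542646, GRCm38) was at 68.8, 56.0 and 65.0 CPM in AEL replicates 1 to 3 and at 116, 102 and 99.9 CPM in NC replicates 1 to 3. Every AEL library was below every NC library. The log2 fold change of AEL over NC was -0.74 (SE 0.13, edgeR adjusted p = 0.00379), that is, 1.67-fold lower in AEL. This call held when any single library was left out, with log2 fold changes of -0.82 to -0.60. A processed pseudogene of Hdac1 on chromosome 17 holds 31.7% of the 50-base windows of the Hdac1 transcripts, so reads from these windows may have been split or dropped in the authors' counting. Hdac1 and Hdac2 shared 0 such windows.

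Hdac2 (chromosome 10, 36974297 to 37001889) was at 177, 168 and 179 CPM in the AEL libraries, set against 146, 162 and 140.1 CPM in the NC libraries. The groups did not overlap, but the gap between the lowest AEL and the highest NC library was small, and the log2 fold change, 0.22 with an SE of 0.10, missed the threshold (edgeR adjusted p = 0.113). With library totals alone it was 0.41 (adjusted p = 0.0177), a scaling that moved the median of all genes to 0.14. Relative to that median the value was 0.28, and 0.27 with TMM.

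Hdac3 (chromosome 18, 37936971 to 37955015), the enzyme of the NCoR complex, was at 86.9, 76.1 and 93.3 CPM in the AEL libraries, set against 85.9, 85.9 and 82.8 CPM in the NC libraries. AEL replicate 2 was the lowest library of all and replicate 3 the highest, so the groups overlapped. Its log2 fold change was 0.01 (SE 0.12, edgeR adjusted p = 0.954), a value whose sign changed in 6 of the 18 alternatives.

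Hdac8 (chromosome X, 102284638 to 102505381) was the least counted of the 9, at 16.4, 17.8 and 18.2 CPM in the AEL libraries, set against 13.8, 11.2 and 10.0 CPM in the NC libraries, from 87 to 199 counts a library. All AEL libraries were above all NC libraries. The log2 fold change was 0.58 (SE 0.22), with an edgeR adjusted p of 0.0644, and the call changed with the setting: DESeq2 gave an adjusted p of 0.0461, and edgeR without AEL replicate 1 gave 0.72 (adjusted p = 0.0440).

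Dividing each CPM by the length of the gene's exons (GENCODE basic transcripts) allows levels to be set side by side between genes. In NC the order of the enzymes was Hdac1 at 52.0 ± 4.29, Hdac3 at 41.8 ± 0.877, Hdac2 at 35.3 ± 2.73 and Hdac8 at 6.04 ± 0.998 CPM per kb (SD, n = 3 each). In AEL it was Hdac3 at 42.0 ± 4.27, Hdac2 at 41.3 ± 1.44, Hdac1 at 31.0 ± 3.22 and Hdac8 at 9.03 ± 0.480 CPM per kb, where Hdac3 and Hdac2 did not differ beyond their spread. Hdac1 thus went from the first to the third place among the 4. The length used for Hdac1 includes the windows shared with its pseudogene. If reads from these were dropped, its levels and shares here are too low and its places may differ. The share of Hdac1 in the summed level of the 4 enzymes was 40.4%, 36.7% and 38.3% in the NC libraries and 26.6%, 24.2% and 24.6% in the AEL libraries. With lengths from all annotated exons, an alternative chosen after seeing the data, Hdac2 led in both groups and the mean share of Hdac1 was 35.1% in NC and 22.3% in AEL. The summed level was 135 ± 6.48 CPM per kb in NC and 123 ± 8.43 in AEL (SD, n = 3 each), with AEL replicate 3 (129) above NC replicate 3 (128), so the groups overlapped.

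Ratios of counts within a library do not depend on how libraries are scaled, and 5 ratios were compared. With 3 libraries against 3 the smallest exact two-sided permutation p is 0.1, which becomes 0.125 after adjustment over the 5 ratios where 4 of them reach it, so none can pass 0.05. Counts of Hdac1 over Hdac2 stood at 0.388, 0.334 and 0.363 in AEL and at 0.795, 0.628 and 0.713 in NC. The groups were apart, and the ratio was 1.96-fold lower in AEL (exact permutation p = 0.1). Hdac3 over Hdac1 went the other way, at 1.26, 1.36 and 1.44 in AEL and 0.741, 0.842 and 0.829 in NC, or 1.68-fold higher (exact permutation p = 0.1). As the groups did not overlap for either ratio, leaving out 1 library could not change the direction of either difference. The log2 differences then ran from -1.06 to -0.89 for Hdac1 over Hdac2 and from 0.69 to 0.80 for Hdac3 over Hdac1.

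**Figure D2:**
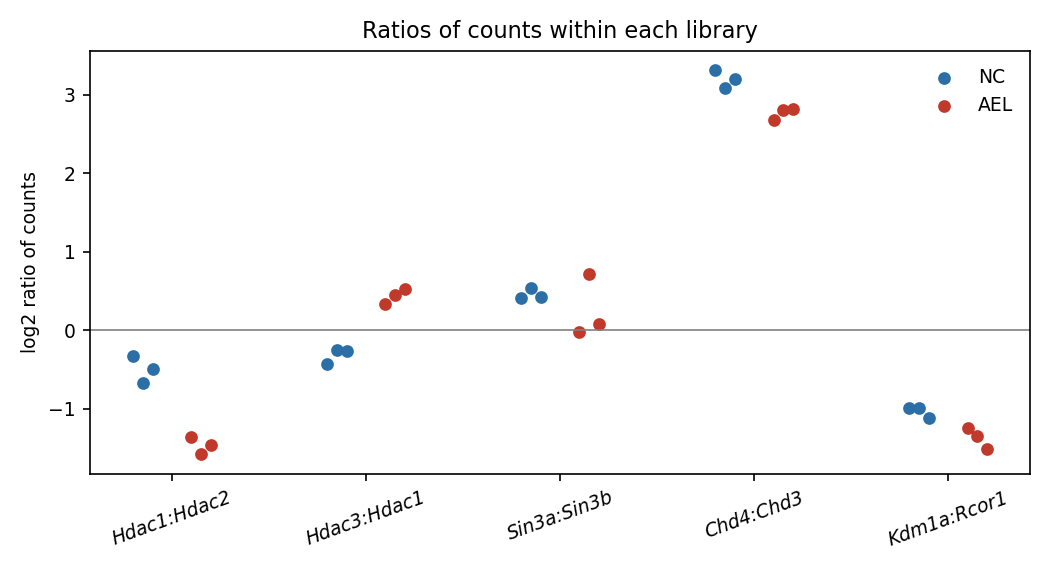
Log2 ratio of the counts of 2 genes within each library, for the 5 ratios compared, with NC in blue and AEL in red; each point is 1 library, and the height of a ratio also depends on the lengths of its 2 genes. The groups are apart for 4 ratios and overlap for Sin3a over Sin3b, where AEL replicate 2 stands above all other libraries.

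Of the scaffolds, Ncor1 had the largest difference among the 9 genes. Ncor1 (chromosome 11, 62315663 to 62457414) is the large platform protein that binds nuclear receptors on one side and activates Hdac3 on the other. Its level was 479, 458 and 403 CPM in the AEL libraries, set against 181, 226 and 247 CPM in the NC libraries. The lowest AEL library stood well above the highest NC library, and the log2 fold change was 1.04 (SE 0.15, edgeR adjusted p = 0.00179), or 2.05-fold. Without any single library it stayed between 0.88 and 1.16 and remained called. In its complex the scaffold rose and the transcript of the enzyme Hdac3 did not pass, and the difference between Ncor1 and Hdac3 was not tested.

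Among 4 other genes listed for the NCoR complex 2 rose and 1 fell, with a median log2 fold change of 0.06. Of all genes tested, 23.9% were called higher and 29.0% lower. Tbl1xr1 and Tbl1x, WD40 proteins that bind the scaffold and take part in exchange of corepressors, rose by 1.16 (SE 0.19, edgeR adjusted p = 0.00296) and 0.92 (SE 0.14, adjusted p = 0.00232) on the log2 scale. Tbl1xr1 was highest in AEL replicate 2, at 180 CPM against 122 and 121 CPM in the others and 58.3 to 71.3 CPM in NC. Gps2, a small core subunit, was at 114, 103 and 107 CPM in the AEL libraries, set against 194, 179 and 191 CPM in the NC libraries, and fell by 0.80 (SE 0.10, adjusted p = 0.00113). Without AEL replicate 1, 2 genes of this list were called lower.

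Rcor1 and Kdm1a, the 2 partners at the heart of CoREST, both rose, by different amounts. Rcor1 (chromosome 12, 111039367 to 111115902), which holds the deacetylase and the demethylase together, was at 303, 301 and 352 CPM in the AEL libraries, set against 189, 183 and 196 CPM in the NC libraries. The groups were well apart, and the log2 fold change was 0.75 (SE 0.11, edgeR adjusted p = 0.00186), called in all 18 alternatives. Kdm1a (chromosome 4, 136550533 to 136602787), which removes methyl groups from lysine 4 of histone H3, was at 128, 119 and 124 CPM in the AEL libraries, set against 95.1, 92.1 and 90.6 CPM in the NC libraries. Its spread was small in both groups and they did not overlap, with a difference of 0.41 on the log2 scale (SE 0.10, edgeR adjusted p = 0.0121). This call ended without any single NC replicate (adjusted p = 0.0637, 0.0824 and 0.0732 without NC replicate 1, 2 and 3). Its log2 fold change stayed at 0.36 to 0.51 when any library was left out. Calls over all genes also fell, from 6563 to 3484, 3521 and 3588 without NC replicate 1, 2 and 3. That drop applies to each call below that was lost without an NC replicate. The count ratio of Kdm1a to Rcor1 was 0.421, 0.395 and 0.351 in AEL and 0.503, 0.504 and 0.462 in NC, lower in every AEL library (1.26-fold, exact permutation p = 0.1).

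Other CoREST genes went both ways. Of 10 listed genes 9 were tested, of which 1 rose and 3 fell (all genes: 23.9% and 29.0%), with a median of 0.12. Zmym3, a zinc finger subunit, rose by 0.91 (SE 0.27, edgeR adjusted p = 0.0289), with AEL replicate 2 at 60.6 CPM and the other AEL libraries at 32.2 and 35.0 CPM, and leaving out any 1 NC replicate ended its call (adjusted p = 0.124, 0.114 and 0.0797). A replicate block also ended the Zmym3 call (edgeR adjusted p = 0.0521). Phf21a (BHC80), a reader of unmethylated histone H3, fell by 1.28 (SE 0.27, adjusted p = 0.00791), and Ctbp1, an abundant corepressor at 457 to 531 CPM in AEL and 663 to 699 CPM in NC, fell by 0.48 (SE 0.11, adjusted p = 0.0102). The Ctbp1 call was lost with quantile normalization (log2 fold change -0.28, limma adjusted p = 0.0603). With library totals alone it was near the threshold (-0.29, edgeR adjusted p = 0.0497). These scalings moved the median of all genes to 0.11 and 0.14. Rcor3, a paralog of Rcor1, was at 26.6 CPM in AEL replicate 1 and 43.0 and 43.5 CPM in the other AEL libraries, against 26 to 27.3 CPM in NC. It did not pass (log2 fold change 0.51, edgeR adjusted p = 0.0944) and passed without AEL replicate 1 (0.81, adjusted p = 0.00586). Rcor2, the other paralog, had 0 to 17 counts in any library and was not tested. The number called higher in this list was 0 without any single NC replicate and 2 without AEL replicate 1 or 2.

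Sin3a (chromosome 9, 57071991 to 57128368), the scaffold that sequence-specific repressors such as the Mxd proteins bind, was at 95.8, 147 and 100.3 CPM in the AEL libraries, set against 109, 113 and 106 CPM in the NC libraries. AEL replicate 2 lay above all NC libraries and the other AEL libraries below them. Its log2 fold change was 0.07 (SE 0.18, edgeR adjusted p = 0.770) and became -0.08 without AEL replicate 2 (adjusted p = 0.563). The other 474 genes of chromosome 9 with a mean level of at least 10 CPM split the AEL libraries in the same way: their median, as log2 CPM minus the NC mean, was -0.69 in AEL replicate 1, 0.01 in replicate 2 and -0.74 in replicate 3. On the same scale Sin3a was at -0.19, 0.43 and -0.12, which is 0.50, 0.42 and 0.62 above the median of its chromosome. For the chromosomes of the other 8 genes these medians lay between -0.03 and 0.31 in every AEL library. The part of the chromosome-wide difference in the Sin3a value was not tested. Earlier results of these data had shown some chromosomes shifted as a whole in AEL. An alternative scaling therefore left out chromosomes 3, 9, 14, 19 and Y. Tbl1xr1 and Gatad2b lie on chromosome 3, Sap18 and Esco2 on 14, and Mta2 and Smc3 on 19. For such partner genes no chromosome medians are given, and the part of chromosome-wide differences in their values was not tested. Among the 9 genes, Sin3a was the one with the widest spread in AEL (coefficient of variation 25%, against 3.33% in NC).

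**Figure D3:**
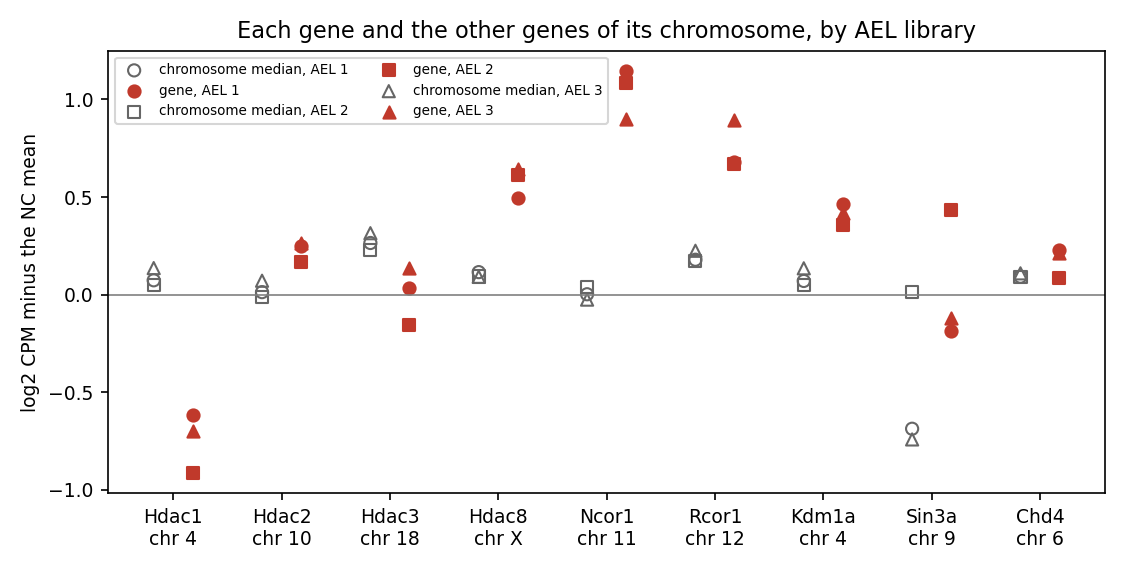
For each of the 9 genes, the log2 CPM of the 3 AEL libraries minus the NC mean (red) beside the median of the same quantity over the other genes of its chromosome with a mean level of at least 10 CPM (open grey); circles, squares and triangles are AEL replicates 1, 2 and 3. Among these 9 genes, only for Sin3a on chromosome 9 do the chromosome medians spread widely, from -0.74 to 0.01. The gene follows with AEL replicate 2 on top.

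The paralog Sin3b was at 97.1, 90.1 and 94.8 CPM in the AEL libraries, set against 81.8, 77.8 and 78.9 CPM in the NC libraries, a log2 fold change of 0.24 that did not pass (SE 0.10, edgeR adjusted p = 0.0879) but passed without AEL replicate 2 (0.34, adjusted p = 0.0392). The count ratio of Sin3a to Sin3b was 0.987, 1.64 and 1.06 in AEL and 1.33, 1.45 and 1.34 in NC, so the groups overlapped (exact permutation p = 0.4). Of the 16 Sin3 genes listed, 3 rose and 5 fell (all genes: 23.9% and 29.0%), with a median of 0.11. Rbbp4 and Rbbp7 in this list are shared with NuRD. Fam60a (SINHCAF), a subunit of Sin3 complexes in stem cells, rose by 1.28 (SE 0.24, edgeR adjusted p = 0.00484), and Sap30l rose by 1.14 (SE 0.25, adjusted p = 0.00863), and the call was lost without NC replicate 2 (adjusted p = 0.0551). Sap18 was at 33.8, 20.8 and 16.9 CPM in the AEL libraries, set against 57.9, 55.1 and 42.6 CPM in the NC libraries. It fell by 1.12 (SE 0.28, adjusted p = 0.0153), and the call was lost without NC replicate 1 or 2 (adjusted p = 0.0637 and 0.0586). The number called higher in the list was 6 without AEL replicate 2 and the number called lower was 2, 2 and 3 without NC replicate 1, 2 and 3.

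Chd4 (chromosome 6, 125095980 to 125130591), the ATP-driven remodeler of NuRD, was the most abundant of the 9 genes per length in both groups (73.5 ± 3.89 CPM per kb in NC and 83.0 ± 4.43 in AEL, SD, n = 3 each). This place is subject to the limit given above for the length of Hdac1. The level of Chd4 was 577, 523 and 573 CPM in the AEL libraries, set against 465, 501 and 515 CPM in the NC libraries. The groups did not overlap, by a narrow margin, and the log2 fold change, 0.18 with an SE of 0.11, missed the threshold (edgeR adjusted p = 0.200). It passed with library totals alone (0.37, adjusted p = 0.0247) and with quantile normalization (0.37, adjusted p = 0.0249), where the medians of all genes were 0.14 and 0.11; relative to these medians the values were 0.23 and 0.26. Chd3, the alternative remodeler, was at 90.2, 74.8 and 81.4 CPM in the AEL libraries, set against 46.7, 59.0 and 56.0 CPM in the NC libraries. It rose by 0.61 (SE 0.14, edgeR adjusted p = 0.0117), and the call was lost without NC replicate 1 or 3 (adjusted p = 0.0668 and 0.0535). The count ratio of Chd4 to Chd3 was 6.40, 7.0 and 7.04 in AEL and 9.95, 8.49 and 9.20 in NC, lower in every AEL library (1.35-fold, exact permutation p = 0.1).

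Of the 11 other NuRD genes measured, 5 rose and 1 fell (all genes: 23.9% and 29.0%), with a median of 0.22. Chd5, a neuronal paralog, was not analysed here. The gene that fell was Rbbp4, a histone-binding WD40 protein that sits beside Hdac1 in both NuRD and Sin3. It was at 366, 339 and 336 CPM in the AEL libraries, set against 697, 630.3 and 635 CPM in the NC libraries, a fall of 0.92 on the log2 scale (SE 0.11, edgeR adjusted p = 0.000875) that was called in all 18 alternatives. Its paralog Rbbp7 was at 335, 289.8 and 337 CPM in the AEL libraries, set against 305, 306 and 282 CPM in the NC libraries and did not pass (0.11, adjusted p = 0.434). As with Hdac1 and Hdac2, 1 paralog of the pair fell and the other did not pass; the difference between Rbbp4 and Rbbp7 was not tested. Of the subunits that join the deacetylase to the remodeler, Mta3 rose by 0.62 (SE 0.10, edgeR adjusted p = 0.00270) and Mta1 by 0.50 (SE 0.13, adjusted p = 0.0148); for Mta1, leaving out any 1 NC replicate ended this call (adjusted p = 0.0916, 0.0843 and 0.0599). Mta2 was at 601, 488 and 296 CPM in AEL and 468 to 496 CPM in NC, with AEL replicate 3 lowest of all, and did not pass (-0.06, adjusted p = 0.858; 0.23 without AEL replicate 3, adjusted p = 0.142). Gatad2b, a linker to Chd4, rose by 1.22 (SE 0.17, edgeR adjusted p = 0.00163), and its paralog Gatad2a rose by 0.34 (SE 0.12, adjusted p = 0.0441), a call lost in 8 of the 18 alternatives, among them each that left out an NC replicate (adjusted p = 0.152 to 0.198). The number called higher was 2, 3 and 2 without NC replicate 1, 2 and 3.

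**Figure D4:**
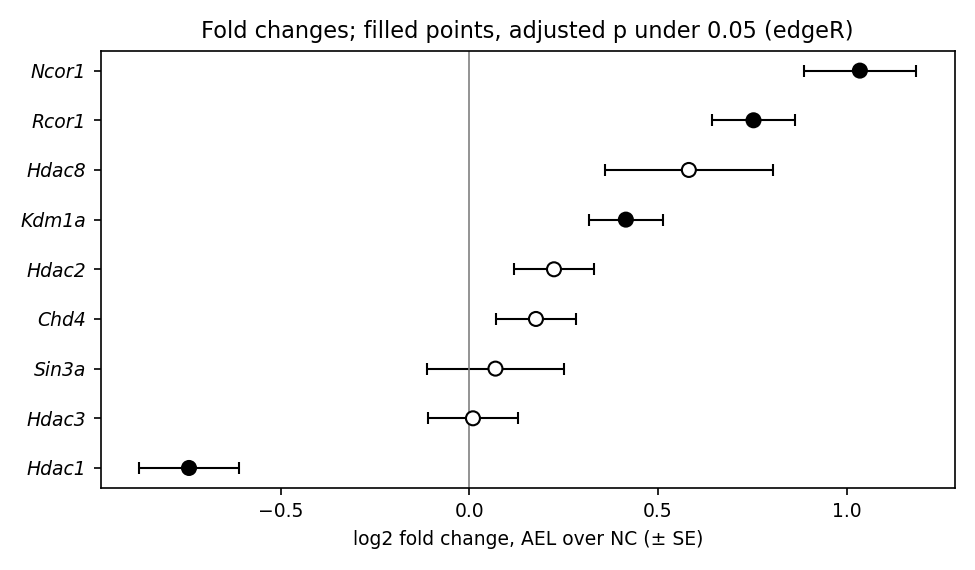
Log2 fold change of AEL over NC for the 9 genes, ordered by size, with bars of 1 SE; filled points have an edgeR adjusted p under 0.05. Ncor1, Rcor1 and Kdm1a are filled above 0 and Hdac1 is filled below 0, at -0.74.

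A further complex built on Hdac1 and Hdac2, MiDAC, and the related MIER proteins had 6 listed genes. Of these, 1 rose and 3 fell (all genes: 23.9% and 29.0%), with a median of -0.94. This median falls between Mier3 and Trerf1, which was picked with its values known. Trerf1 had only 2 to 14 counts a library and did not pass (-0.96, edgeR adjusted p = 0.204). Dnttip1, the dimerizing core of MiDAC, was at 29.6, 29.3 and 28.7 CPM in the AEL libraries, set against 68.0, 72.1 and 69.7 CPM in the NC libraries. It fell by 1.26 (SE 0.12, edgeR adjusted p = 0.000437), with little spread within either group. Elmsan1 (MIDEAS), its scaffold, rose by 0.34 (SE 0.11, adjusted p = 0.0399), and leaving out any 1 NC replicate ended this call (adjusted p = 0.207, 0.176 and 0.0805). With all libraries, the Elmsan1 call was also lost with a replicate block (edgeR adjusted p = 0.112) and in a limma fit that let spread differ by group. Mier3 fell by 0.92 (SE 0.19, adjusted p = 0.00773), and Mier2, picked with its values known, had 0.0915 CPM or less in AEL and 5.53 to 8.0 CPM in NC.

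The deacetylases of other classes moved over a wider range than class I, but 14 genes are set against 4, and a range widens with number. Of 14 listed, 4 rose and 4 fell (all genes: 23.9% and 29.0%), with a median of -0.08. The number called lower was 2 without NC replicate 1 or 3. Hdac7, a class IIa enzyme that is itself bound by NCoR and Hdac3, was at 318, 357 and 423 CPM in the AEL libraries, set against 42.6, 45.3 and 45 CPM in the NC libraries. Its log2 fold change was 3.05 (SE 0.14, edgeR adjusted p = 7.25e-05). Per length Hdac7 went from 8.93 ± 0.302 to 73.8 ± 10.7 CPM per kb (SD, n = 3 each), that is, from below Hdac1, Hdac2 and Hdac3 in NC to above each of them in AEL. Hdac4, of the same class, rose by 1.10 (SE 0.17, adjusted p = 0.00236), while Hdac5 was at 19.1, 8.58 and 4.94 CPM in AEL and 52.6 to 56.6 CPM in NC and fell by 2.31 (SE 0.47, adjusted p = 0.00625). Sirt3, a mitochondrial NAD-dependent deacetylase, fell by 0.96 (SE 0.21, adjusted p = 0.00881).

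**Figure D5:**
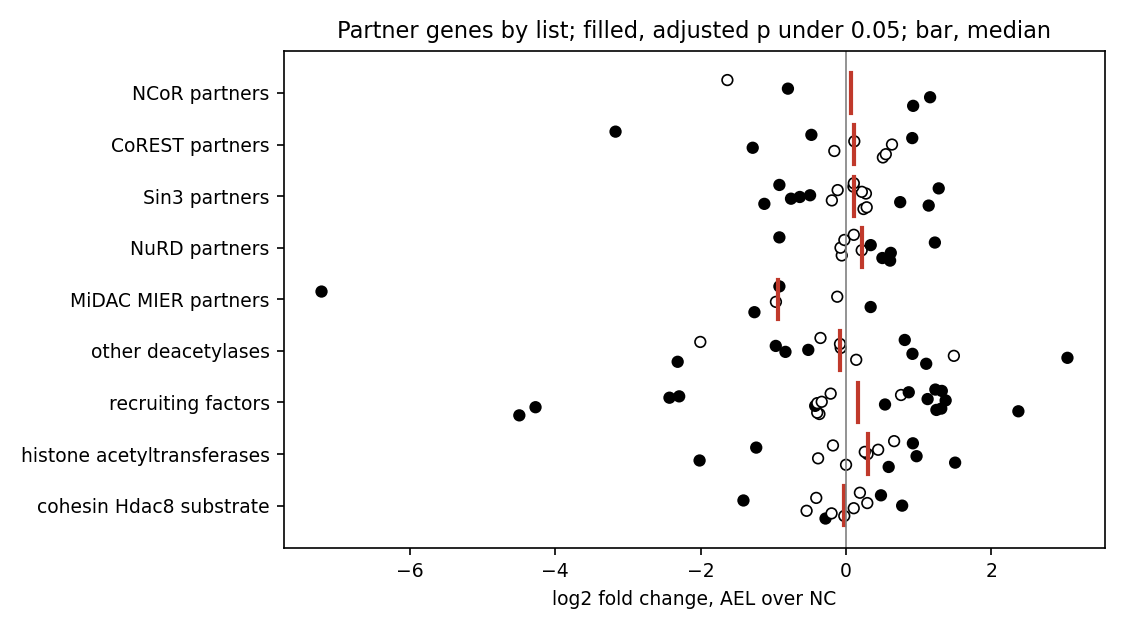
Log2 fold change of AEL over NC for the tested genes of 9 lists (other subunits of the complexes, other deacetylases, recruiting factors, acetyltransferases, cohesin); each point is 1 gene, filled where the edgeR adjusted p is under 0.05, and the red bar is the list's median, from -0.94 for MiDAC and MIER to 0.30 for the acetyltransferases. Each of the lists holds filled points on both sides of 0, and 52.8% of all genes tested were called.

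Transcription factors that bring these complexes to DNA also went both ways. Of 20 listed, 9 rose and 5 fell (all genes: 23.9% and 29.0%), with a median of 0.16. The number called lower was 3 without NC replicate 2 or 3. Cbfa2t3 (ETO2), which ties NCoR to the Tal1 and Gata1 complex, was at 217, 122 and 144 CPM in the AEL libraries, set against 26.1, 33.8 and 33.4 CPM in the NC libraries. It rose by 2.37 on the log2 scale (SE 0.25, edgeR adjusted p = 0.000610), with AEL replicate 1 the highest. Mxd1, a Myc antagonist that recruits Sin3, was at 52.6, 55.6 and 25.2 CPM in the AEL libraries, set against 198, 239 and 279 CPM in the NC libraries, and fell by 2.43 (SE 0.32, adjusted p = 0.00131). Bcl6, a repressor of lymphoid and myeloid cells that uses NCoR, was at 0.113 to 1.85 CPM in AEL and 12.6 to 16.1 CPM in NC and fell by 4.27 (SE 0.83, adjusted p = 0.00541), beside the lower leukocyte markers given above. Gfi1b and Zfpm1, picked with their values known, did not pass: Gfi1b was at 105, 263 and 168 CPM in AEL and 223 to 236 CPM in NC (edgeR adjusted p = 0.346), and Zfpm1 at 709, 358 and 506 CPM in AEL and 619 to 764 CPM in NC (adjusted p = 0.215).

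Histone acetyltransferases, which act against the deacetylases, had 4 genes higher and 2 lower of 13 (all genes: 23.9% and 29.0%), with a median of 0.30. The paralogs Kat2a (GCN5) and Kat2b (PCAF) changed in opposite directions. Kat2a was at 137, 133 and 151 CPM in the AEL libraries, set against 47.1, 57.9 and 43.8 CPM in the NC libraries and rose by 1.5 (SE 0.14, edgeR adjusted p = 0.000467). Kat2b was at 28.8, 30.3 and 23.2 CPM in the AEL libraries, set against 116, 104 and 112 CPM in the NC libraries and fell by 2.01 (SE 0.15, adjusted p = 0.000216). Hat1, which acetylates newly made histone H4, fell by 1.23 (SE 0.15, adjusted p = 0.000937).

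For Hdac8, whose substrate is cohesin, 11 cohesin genes were listed. Of these, 2 rose and 2 fell (all genes: 23.9% and 29.0%), with a median of -0.02. Nipbl, the loader, rose by 0.77 (SE 0.14, edgeR adjusted p = 0.00456), and Pds5a rose by 0.48 (SE 0.11, adjusted p = 0.00930), and leaving out any 1 NC replicate ended this call (adjusted p = 0.0673, 0.0593 and 0.0515). Esco2, the S phase acetyltransferase of Smc3, was at 89.6, 42.3 and 25.4 CPM in AEL and 132 to 147 CPM in NC. It fell by 1.41 (SE 0.42, adjusted p = 0.0286), and the call was lost without AEL replicate 2 (adjusted p = 0.0542) or any single NC replicate (0.0866, 0.0740 and 0.0799). Smc3 itself, picked with its values known, was at 385, 340.3 and 200.4 CPM in AEL and 309 to 317 CPM in NC and did not pass (edgeR adjusted p = 0.942). Without any single NC replicate 1 gene of the list was called higher and 0 lower, and without AEL replicate 2, 4 were called higher and 1 lower; without AEL replicate 3, 1 was called lower.

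Per length, the order of all 9 genes also differed between the groups. The places of Hdac1 carry the limit given above for windows shared with its pseudogene. In NC, Chd4 and Hdac1 led, Rcor1 (33.3 ± 1.16 CPM per kb) stood just below Hdac2, Kdm1a was at 30.2 ± 0.750, Sin3a at 20.9 ± 0.695 and Ncor1 at 19.5 ± 3.03, and the pairs Hdac2 and Rcor1, and Sin3a and Ncor1, did not differ beyond their spread. In AEL, Chd4 was followed by Rcor1 at 56.1 ± 5.10 CPM per kb, then Hdac3, Hdac2, Kdm1a (40.2 ± 1.46) and Ncor1 (40.0 ± 3.48), which did not differ beyond their spread, then Hdac1, Sin3a (21.9 ± 5.47) and Hdac8 (SD, n = 3 each). These orders and ties hold for basic-exon lengths only: with all annotated exons, Hdac2 (33.4), Rcor1 (33.3) and Hdac1 (30.8 CPM per kb) followed Chd4 in NC, and in AEL the means were 39.0 for Hdac2, 34.9 for Ncor1, 23.8 for Kdm1a and 21.1 CPM per kb for Hdac3. Among all genes with a mean level of at least 10 CPM, the log2 CPM profiles over the 6 libraries nearest to that of Hdac1, by Euclidean distance after centring, were those of Zcrb1 (distance 0.0949) and Oip5 (0.104). Nearest to Hdac2 were Cdk20 (0.0566) and Pdcl3 (0.0906), to Hdac3 Psmd14 (0.0651) and Phf23 (0.0886), and to Hdac8 Rfesd (0.141) and Phykpl (0.145).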

How the data were processed

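The authors deposited 1 table, named CPM, whose values are whole-number counts per gene that sum to different totals, so they were treated as counts. Per the submitters' processing notes, mm10 and edgeR 3.32.1 were used, with no role given; no source used here gives the aligner, the counting tool or the strand setting. Poly-A RNA from sorted cells was sequenced, per the labels' protocols. Counts were tested with edgeR 4.0.16 (R 4.3.3; glmQLFit and glmQLFTest, TMM factors, group as the only term) on genes that reached 1 CPM in 3 or more libraries, with Benjamini-Hochberg adjustment at 0.05. A prior check on simulated counts gave both groups the same spread per gene, so it does not cover the wider spread of AEL. SE is the absolute log2 fold change over the square root of F. Limma 3.58.1 and DESeq2 1.42.0 were alternatives. No library repeats another (chi-square per degree of freedom 4.89 to 60.3 within groups). Promoters came from RefSeq (GRCm38.p6) and exon lengths from GENCODE on GRCm38, the assembly of mm10. Named were the 9 genes, their paralogs, Hdac7, up to 3 called genes per list at 10 CPM or more, and nearest profiles. The genes and lists were chosen with earlier results of these data known. For 1 further gene and 1 further ratio, the values are not reported here.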

Additional observations from a re-analysis of the deposited data

How the results depend on the processing

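The calls of Hdac1, Ncor1 and Rcor1 and the directions of the genes other than Hdac3 and Sin3a held in all 18 alternatives. The groups of those 7 genes did not overlap, so the 6 alternatives that left out 1 library could hardly reverse their directions. With library totals alone 6 of the 9 genes were called higher, with Hdac2 at 0.41, Hdac8 at 0.77 and Chd4 at 0.37, and with quantile normalization 5 were, with Hdac8 at 0.89 and Chd4 at 0.37. These scalings moved the share of called genes that were higher from 45.2% to 55.2% and 55.5%. Hdac8 was also called with limma on log2(CPM + 5) at 0.44 and by DESeq2 at 0.59. Hdac3 was at -0.0141 with the 10 CPM filter and -0.0329 with quantile normalization. Deviations from the group means correlated at 0.08, -0.02 and -0.03 between same-numbered libraries, which gives no sign of pairing but cannot exclude it. With a replicate block 5479 genes were called against 6563, and Kdm1a was at 0.41 with its call ended. Mta2 was at 0.122 with library totals alone and at 0.0234 after quantile normalization. Leaving out 1 library at a time gave 3484 to 7087 called genes (3484, 3521 and 3588 without NC replicate 1, 2 and 3), 2 to 4 of the 9 called higher and 1 lower, and log2 fold changes of -0.0459 to 0.16 for Hdac3, -0.0833 to 0.28 for Sin3a, 0.36 to 0.51 for Kdm1a, 0.44 to 0.72 for Hdac8, and -0.20 to 0.23 for Mta2. The causes were not tested. Hdac8 had the fewest counts of the 9 genes, 87 in NC replicate 3, which limits its precision most.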
